A study of Mus musculus with 2 samples.

Results

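The T-box transcription factors examined here were 10 genes, T, Tbx1, Tbx2, Tbx3, Tbx4, Tbx5, Tbx6, Tbx18, Tbx20 and Eomes, taken by name from the 29453 genes of the spliced and unspliced count matrices. The cells came from 6 chimeric mouse embryos that were pooled and sorted by red fluorescence. The tdTom+ fraction (labelled E8.5) descends from Gata1-null embryonic stem cells that carry a tdTomato reporter, are of a male line and come from 1 clone with a 38 bp frameshift in exon 4 of Gata1. The tdTom- fraction (labelled E8.6) holds the wildtype C57BL/6 host cells, whose blastocysts received the injected cells at E3.5. Each fraction gave 1 10x Genomics library, so the fractions differ in genotype, clone and library at once and these cannot be told apart. No test between them is possible, and all intervals given are 95% intervals of counting error only.

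After removal of called doublets, 8569 tdTom+ and 8706 tdTom- cells remained, with 17598 and 15996 median spliced UMIs per barcode before that step and 18 barcodes present in both libraries. Cells were placed in 26 groups by clustering without any T-box gene. A group is called "X-like" where markers named it and by its leading genes where they did not. Gata1 itself was at 30.5 CPM (the share of a group's spliced UMIs, as counts per 1e6) in 1380 tdTom+ blood progenitor-like cells and at 133 CPM in 1391 tdTom- erythroid-like cells, and a frameshift leaves a transcript that can still be counted. Xist was lower in tdTom+ than in tdTom- cells in each of the 19 groups compared; the injected line is male. Blood cells were taken as the level of free RNA. Levels of the members ranged from 0.0860 CPM (Eomes) to 1.78 CPM (Tbx3) in tdTom+ blood cells and from 0 to 0.705 CPM in tdTom- blood cells.

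T-box proteins share a DNA-binding domain first described in Brachyury, the product of T, and act as activators or repressors at sites built from a short common motif. T drives formation of posterior mesoderm and notochord, Tbx6 commits progenitors to paraxial mesoderm, and Eomes acts earlier, in gastrulation and in trophoblast. Tbx5 and Tbx20 are core factors of the heart, Tbx2 and Tbx3 repress chamber genes, Tbx1 patterns the pharynx and the second heart field, Tbx18 marks the anterior part of each somite and later the epicardium, and Tbx4 is needed for the allantois and hindlimb.

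T and Tbx6 were the members found together in the most posterior cells, so the bases just upstream of their start sites are shown. The windows are 250 bases long, on the plus strand of build GRCm38.p6 from RefSeq, at chr17:8434173-8434422 for T and chr7:126781233-126781482 for Tbx6. Capitals mark a TCF/LEF core (CTTTGA, or its complement TCAAAG) and a TATA box (TATAAA).
T: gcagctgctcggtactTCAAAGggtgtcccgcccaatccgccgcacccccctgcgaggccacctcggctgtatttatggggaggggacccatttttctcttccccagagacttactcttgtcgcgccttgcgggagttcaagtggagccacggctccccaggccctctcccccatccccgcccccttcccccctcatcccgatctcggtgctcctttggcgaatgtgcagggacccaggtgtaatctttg
Tbx6: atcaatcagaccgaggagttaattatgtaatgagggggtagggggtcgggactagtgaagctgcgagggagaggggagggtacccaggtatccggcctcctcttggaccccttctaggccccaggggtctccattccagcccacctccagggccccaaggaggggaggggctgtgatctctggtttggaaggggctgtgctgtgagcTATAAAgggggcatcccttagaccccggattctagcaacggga
The window of T held 1 TCF/LEF core, on the minus strand at position -234 from the start, and that of Tbx6 held 1 TATA box, on the plus strand at position -43. Searched on both strands, the TCF/LEF core was in 13.8% and the TATA box in 12.4% of the same windows of 32851 annotated starts. Neither window held the T-box motif AGGTGTGA, found in 1.12% of windows, nor the shorter GGTGTG that lies within it, found in 16.3%. Windows of T, Tbx1 (at 2 starts), Tbx4, Tbx6, Tbx18, Tbx20 and Eomes were searched, and none had AGGTGTGA or GGTGTG. Each lies before an annotated start that need not be the outermost one of the gene, and that of Tbx4 and 1 of those of Tbx1 lie inside the gene.

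**Figure D1:**
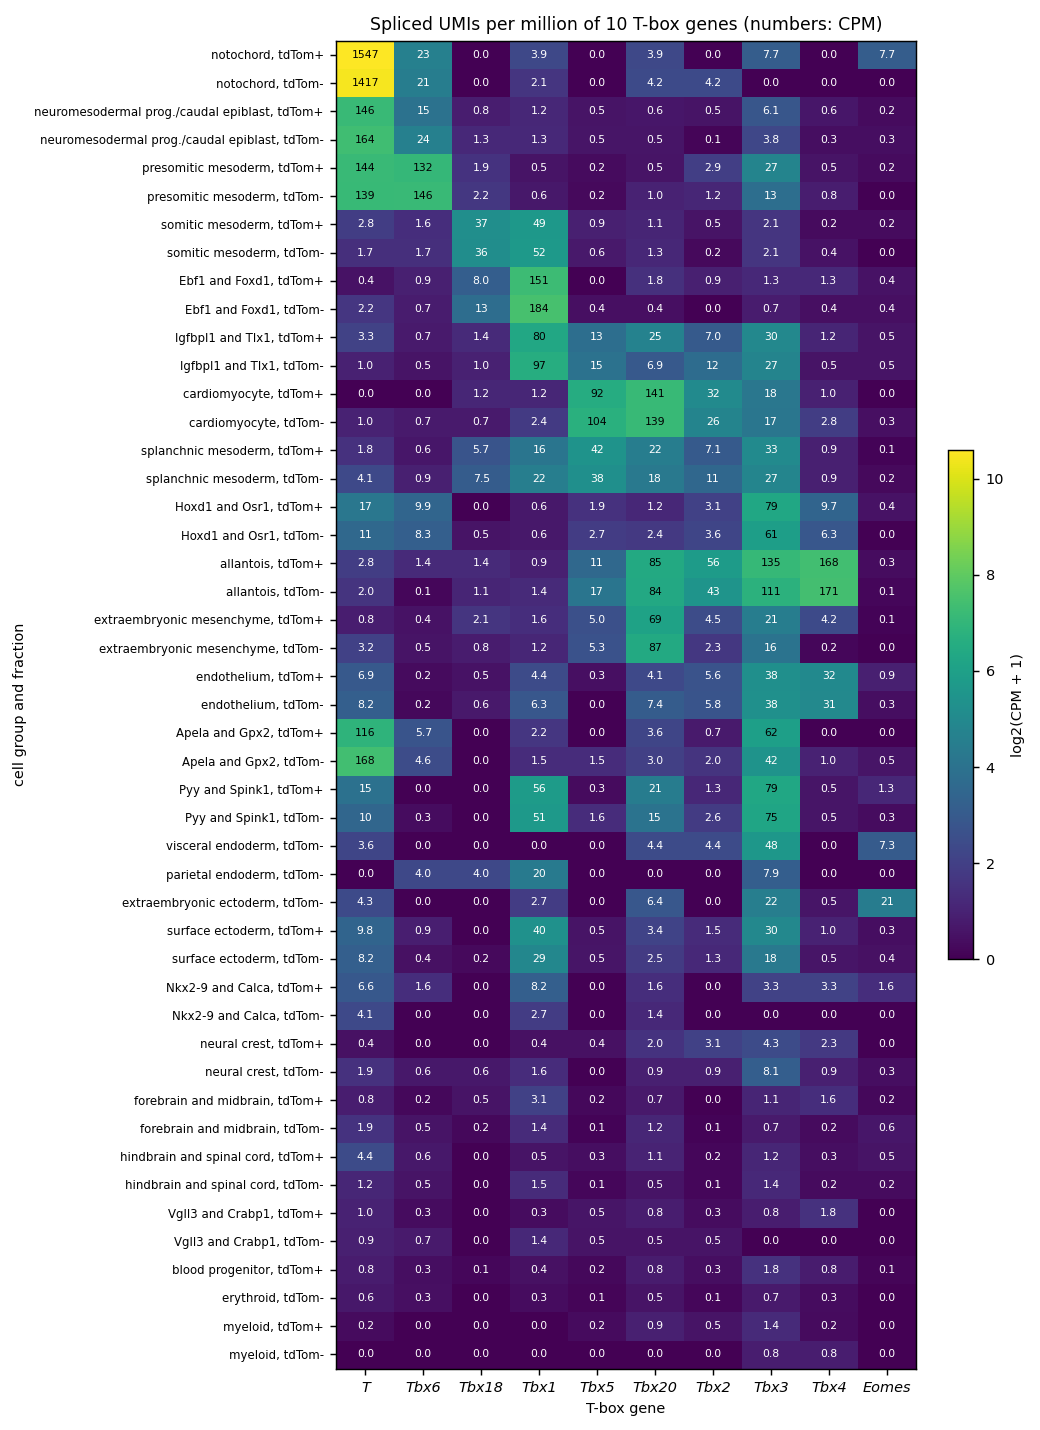
Level of each T-box gene (columns) in each cell group and fraction with at least 20 cells (rows), in CPM of spliced UMIs, with the colour on a log2(CPM + 1) scale and the number printed in each cell. T reached 1547 CPM in tdTom+ notochord-like cells, and the tdTom+ and tdTom- rows of most groups lie close to each other.

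T, the gene of Brachyury, was highest in notochord-like cells, at 1547 CPM (interval 1442 to 1658, 41 cells) in tdTom+ and 1417 CPM (1311 to 1528, 38 cells) in tdTom-. A spliced T UMI was present in all 79 of these cells. The next levels were about an order of magnitude lower and close to each other. In neuromesodermal progenitor and caudal epiblast-like cells (caudal progenitors below), the bipotent pool that feeds spinal cord and paraxial mesoderm, T stood at 146 CPM (tdTom+) against 164 CPM (tdTom-). Presomitic mesoderm-like cells, the unsegmented tissue that buds off somites, had 144 CPM (tdTom+) against 139 CPM (tdTom-). In the cells led by Apela and Gpx2, T was at 116 CPM (tdTom+) against 168 CPM (tdTom-). There 7 gut endoderm markers were raised, and 4 of neuromesodermal progenitor and caudal epiblast. These 3 groups were not separated from each other beyond the gap between the fractions of 1 group. Everywhere else T was below 20 CPM, 17.2 CPM in the tdTom+ cells led by Hoxd1 and Osr1 being the highest.

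Tbx6, which acts downstream of T in the choice of a paraxial mesoderm fate, was highest in presomitic mesoderm-like cells. It reached 132 CPM (122 to 144) there in tdTom+ and 146 CPM (136 to 157) in tdTom-. Caudal progenitors held 15.1 CPM (tdTom+) against 23.8 CPM (tdTom-), and notochord-like cells 23.2 and 21.2 CPM from only 12 and 10 UMIs. In somitic mesoderm-like cells, the next step of the lineage, Tbx6 was at 1.6 CPM (tdTom+) against 1.7 CPM (tdTom-), so the gene was high in 1 stage of this path. Hes7, Dll3 and Dll1, parts of the Notch clock of the presomitic mesoderm, were closest in pattern to T or Tbx6: Pearson's r of log2(CPM + 10) over 47 sums of a cell group in a fraction was 0.89 between T and Hes7, 0.96 between Tbx6 and Dll3 and 0.94 between Tbx6 and Dll1. These sums share 2 libraries and the highest few groups, and r is a description. Hes7, Dll3 and Dll1 were also among the markers that named the presomitic mesoderm-like cells. Next for T came AC139238.1 (0.89) and Mnx1 (0.87), a homeobox gene of notochord and motor neurons, and for Tbx6 came Gnal (0.92).

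To ask whether genes met in the same cell, each cell was thinned to 5000 UMIs and the share with both genes was set beside the product of the 2 single shares. These pairs within caudal progenitors, those of T with Tbx6 in presomitic mesoderm-like cells and those in the cells led by Igfbpl1 and Tlx1 were chosen after the levels were seen. The intervals are those of the share with both, with the product taken as fixed. An interval that holds the product thus does not show that the genes were independent. In caudal progenitors T and Tbx6 were both present in 4.05% (2.46 to 6.25) of 469 tdTom+ cells against a product of 2.14%, and in 7.90% (5.80 to 10.5) of 557 tdTom- cells against 3.95%. Both fractions thus had close to 2.0 times as many cells with both as the product. In presomitic mesoderm-like cells the same pair was near the product, with 18.7% against 17.8% in tdTom+ and 20.8% against 18.2% in tdTom-. T and Sox2, the neural side of the caudal progenitor pool, went the other way: 12.6% of tdTom+ caudal progenitors had both against a product of 17.7%, and 17.4% of tdTom- cells against 24.6%. The ratio was 0.71 (0.55 to 0.90) in tdTom+ and 0.71 (0.58 to 0.85) in tdTom-, so cells with T had Sox2 less often than the product in both libraries. T with Nkx1-2, a marker of the same pool, was nearer to it, at ratios of 0.90 and 0.87 with intervals that held 1. Tbx6 with Msgn1, its partner in paraxial mesoderm, had ratios of 0.90 in tdTom+ and 1.27 in tdTom- presomitic mesoderm-like cells, both with intervals that held 1. In notochord-like cells nearly every cell had T, so pairs of T with Tbx6, Sox2, Noto and Nkx1-2 could show little there.

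**Figure D2:**
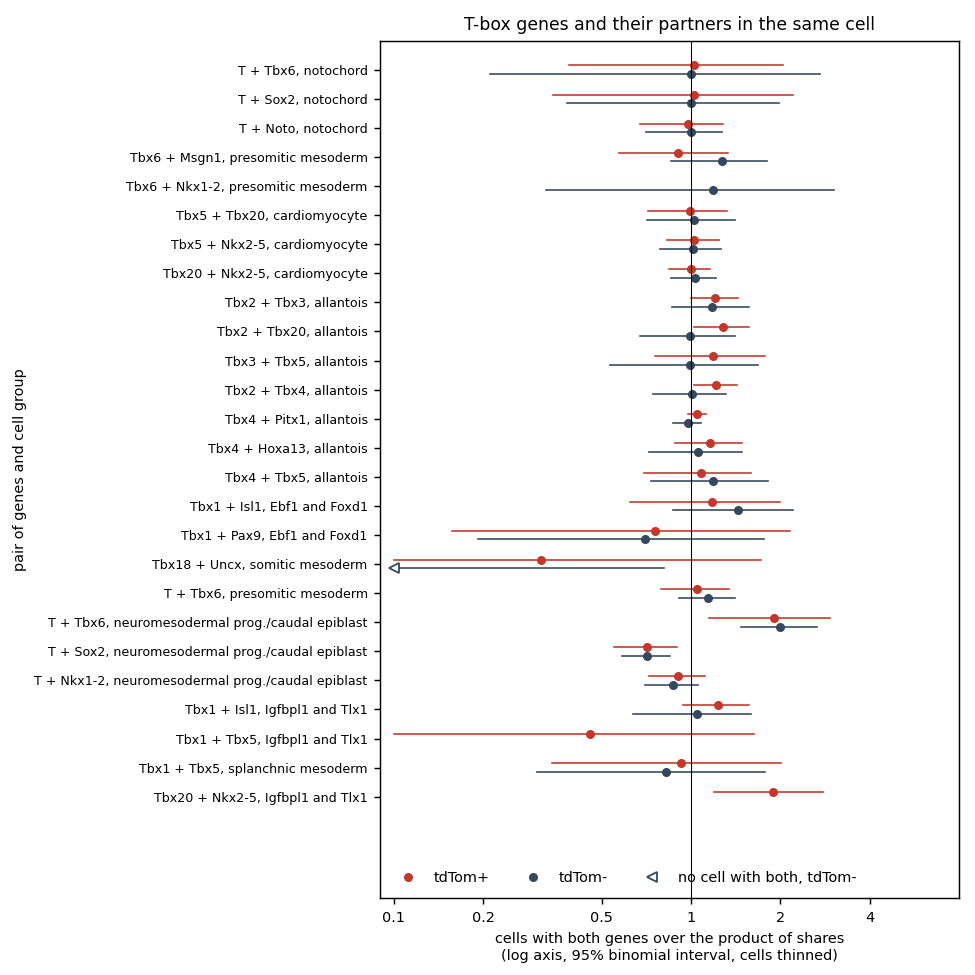
Cells with a UMI of both genes divided by the product of the 2 single shares (log axis), for the pairs reported here with at least 3 cells by the product, in tdTom+ (red) and tdTom- (dark) cells thinned to 5000 UMIs, with 95% intervals. Most points lie near 1, T with Tbx6 in caudal progenitors lies at 1.90 and 2.00, and T with Sox2 there at 0.71 in both fractions.

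Tbx18, known from the anterior part of each somite, was highest in somitic mesoderm-like cells, at 36.8 CPM (31.3 to 43.0) in tdTom+ and 36.1 CPM (30.9 to 42.0) in tdTom-. The cells led by Ebf1 and Foxd1 came next, with 8.0 CPM and 12.7 CPM, and splanchnic mesoderm-like cells followed with 5.7 CPM and 7.5 CPM, which overlap. Within somitic mesoderm-like cells, Uncx, which marks the posterior part of a somite, was in 7.81% of 269 tdTom+ and 9.24% of 303 tdTom- thinned cells, and Tbx18 in 15.2% and 16.2%. Only 1 tdTom+ cell and no tdTom- cell had both, where the products of the shares come to 3.20 and 4.53 cells. The ratio's upper limit was 1.73 in tdTom+ and 0.81 in tdTom-, so the shortfall exceeded counting error in tdTom- alone. Foxd2 (0.91) and Meox2 (0.88), both known in somites, were among the genes nearest to Tbx18 in pattern. Meox2 was also among the markers of the somitic mesoderm class. Of the 7 genes of the epicardial and somite list, Uncx alone could be compared between the fractions in this group, and its log2 fold of tdTom+ over tdTom- was -0.71 (-1.09 to -0.35). Wt1, an epicardial factor, was in 1 thinned somitic mesoderm-like cell of each fraction and never with Tbx18.

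Tbx1, whose loss on 1 allele underlies DiGeorge-like defects of the pharynx and outflow tract, was present in mesodermal, endodermal and ectodermal groups. It was highest in the cells led by Ebf1 and Foxd1, in which 4 pharyngeal and cranial mesoderm markers were raised, at 151 CPM (135 to 168) in tdTom+ and 184 CPM (168 to 201) in tdTom-. The cells led by Igfbpl1 and Tlx1, in which 6 cardiomyocyte markers were raised and Isl1 and Nkx2-5 were among the leading genes, held 79.8 CPM and 96.9 CPM. The next groups were the cells led by Pyy and Spink1, at 56.1 CPM (tdTom+) against 50.8 CPM (tdTom-), and somitic mesoderm-like cells at 49.2 and 51.6 CPM, which overlap. In the cells led by Pyy and Spink1, 6 gut endoderm and 5 pharyngeal foregut endoderm markers were raised. Surface ectoderm-like cells held 39.6 and 29.3 CPM. In the cells led by Ebf1 and Foxd1, 44.2% of tdTom+ and 52.0% of tdTom- thinned cells had Tbx1, beside 0.188% and 0.140% of blood cells. None of the 10 genes of the pharyngeal list that could be compared there was past 2-fold between the fractions. Of all 8142 genes compared in these cells, only 43 were called higher and 95 lower. Tbx1 and Isl1, a second heart field factor, were together in 19.7% of 259 tdTom+ cells led by Igfbpl1 and Tlx1 against a product of 16.0%. In tdTom- they were together in 13.4% of 134 cells against 12.8%. These were 51 tdTom+ cells where the product gives 41.4, and 18 tdTom- cells where it gives 17.2. Both intervals of the share with both held the product, which does not show that the genes were independent. Tbx1 with Pax9, a pharyngeal pouch gene, gave ratios of 0.75 and 0.70 in the tdTom+ and tdTom- cells led by Ebf1 and Foxd1, with intervals that held 1. Only 3 and 4 cells had both. The pair was not examined in the cells led by Pyy and Spink1, where Pax9 was a leading gene. Hlf (0.84) and Ebf2 (0.81) were among the nearest in pattern.

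Tbx5 and Tbx20 shared the cardiomyocyte-like cells as their highest group but not the rest of their range. Tbx5 was at 92.4 CPM (83.4 to 102) in 245 tdTom+ and 104 CPM (92.8 to 117) in 171 tdTom- cardiomyocyte-like cells. It stood at 41.9 CPM and 38.0 CPM in splanchnic mesoderm-like cells, the tissue that holds the posterior second heart field, and at 10.9 CPM and 16.5 CPM in allantois-like cells. Hcn4 (0.95), the pacemaker channel, Actc1 (0.94), cardiac actin, and Csrp3 (0.93), a muscle LIM protein, were the genes nearest to Tbx5 in pattern. Tbx20 was at 141 CPM (130 to 153) in tdTom+ and 139 CPM (126 to 153) in tdTom- cardiomyocyte-like cells. Its next levels lay in extraembryonic tissue. Extraembryonic mesenchyme-like cells held 68.7 CPM (tdTom+) against 86.6 CPM (tdTom-), and allantois-like cells 84.6 and 83.8 CPM. Gata5 (0.90), Lrrfip1 (0.88) and Popdc3 (0.88) were nearest to Tbx20, and Gata5 is a cardiac and endodermal GATA factor.

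In thinned cardiomyocyte-like cells, Tbx5 and Tbx20 were together in 15.6% of 238 tdTom+ cells against a product of 15.7%, and in 18.1% of 166 tdTom- cells against 17.7%. With Nkx2-5, the homeobox factor that binds DNA beside both, Tbx5 had ratios of 1.02 and 1.01 and Tbx20 1.00 and 1.03. All of these intervals held 1. Nkx2-5 was in 86.55% of tdTom+ and 86.75% of tdTom- cells, so pairs with it could show little here. Cells with both Tbx5 and Tbx20 were close to the product, so detection of 1 of them said little about the other at this depth. Of the 18 genes of the cardiac list, 17 could be compared in cardiomyocyte-like cells. Only Nppa, the natriuretic peptide gene activated by Tbx5 in forming chambers, was past 2-fold, at 194 CPM (tdTom+) against 800.1 CPM (tdTom-) (log2 fold -2.05, interval -2.16 to -1.93). Beside it, Tbx5 had a log2 fold of -0.18 (-0.40 to 0.05), Nkx2-5 of 0.06 (-0.04 to 0.16) and Tnnt2, a sarcomere gene, of -0.02 (-0.05 to 0.01). The median over the 17 genes was -0.02, and of all 8852 genes compared in cardiomyocyte-like cells 60 were called higher and 153 lower.

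Tbx2 and Tbx3, close relatives that repress transcription, both had their highest level in allantois-like cells, the bud of the future umbilical vessels. These cells were split by clustering into 1 cluster of 860 tdTom+ and 2 tdTom- cells, with the imprinted gene Peg10 among its leading genes, and 1 of 421 tdTom- cells, led by the imprinted genes Phlda2 and Cdkn1c. Tbx2 was at 56.0 CPM (52.3 to 59.8) in tdTom+ and 43.2 CPM (38.5 to 48.3) in tdTom- allantois-like cells. Cardiomyocyte-like cells came second, with 32.4 CPM and 26.2 CPM, and no other group was above the 12.3 CPM of the tdTom- cells led by Igfbpl1 and Tlx1. Popdc3 (0.94), Asb12 (0.90) and Vcam1 (0.87), the last an adhesion gene of the allantois, were nearest to Tbx2. Tbx3 was broader than any other member. It was at 135 CPM (129 to 141) in tdTom+ and 111 CPM (104 to 119) in tdTom- allantois-like cells, and at 79.4 and 75.0 CPM in the cells led by Pyy and Spink1. The cells led by Hoxd1 and Osr1 held 79.3 and 60.8 CPM, but with finer clusters they too divided by fraction, mainly into 1 cluster with 215 tdTom+ and 6 tdTom- cells of the group and 1 with 13 tdTom+ and 470 tdTom-. Of the other groups, the cells led by Apela and Gpx2 held 62.4 and 42.5 CPM, and endothelium-like cells 37.9 and 38.4 CPM. Tbx3 had 13 groups within 10-fold of its highest level, where the other members had 2 to 7. Unc5b (0.86), Bambi (0.82) and Smad7 (0.80), the latter pair being inhibitors induced by BMP and TGF-beta signals, were nearest to Tbx3.

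Tbx4, required for growth of the allantois, was highest in allantois-like cells. Its level there was 168 CPM (161 to 174) in tdTom+ and 171 CPM (162 to 181) in tdTom-, and 75.0% of its CPM summed over the 26 groups lay in that group. Endothelium-like cells, part of which line allantoic vessels at this stage, held 32.0 and 30.6 CPM, and the cells led by Hoxd1 and Osr1 held 9.7 and 6.3 CPM. Hoxa11 (0.99) and Hoxa13 (0.96), posterior Hox genes, followed the pattern of Tbx4 most closely, with Cyth1 (0.90) next. Both Hox genes were also among the markers of the allantois class. In thinned allantois-like cells Tbx4 and Pitx1, its upstream activator in the hindlimb, were together in 48.5% of 849 tdTom+ cells against a product of 46.4%, and in 46.9% of 403 tdTom- cells against 48.2%. Tbx4 with Hoxa13 had ratios of 1.16 and 1.06, and Tbx4 with Tbx5 of 1.08 and 1.19, with intervals that held 1. None of the 10 genes of the allantois and hindlimb list was past 2-fold between the fractions in allantois-like cells, and the largest folds were those of Wnt2 (-0.88), Itga4 (-0.86) and Vcam1 (-0.76). Of all 10633 genes compared there, only 78 were called higher and 117 lower.

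Allantois-like cells also carried the most T-box genes at once. A UMI of 3 or more of the 10 members was present in 22.3% of tdTom+ and 18.4% of tdTom- thinned allantois-like cells, with up to 5 in 1 cell. Cardiomyocyte-like cells came next, at 6.72% and 3.61%, and presomitic mesoderm-like cells had 0.778% and 0.917%. Brain, neural crest and blood cells were close to empty of the family: between 94.3% and 100% of cells in those groups had no member. Tbx2 met Tbx3 in 12.6% of tdTom+ allantois-like cells against a product of 10.4%, Tbx20 in 9.54% against 7.46% and Tbx4 in 14.6% against 12.0%, for ratios of 1.21, 1.28 and 1.22 whose intervals began at 1.00, 1.03 and 1.03. In tdTom- cells the ratios were 1.18, 0.995 and 1.00, all with intervals that held 1. Some members are neighbours in the genome. Tbx2 and Tbx4 lie 44.5 kb apart on chromosome 11 (Tbx2 at 85832551 to 85841948, Tbx4 at 85886422 to 85916097, GENCODE vM21, GRCm38), and both were highest in allantois-like cells. Tbx3 and Tbx5 lie 147.9 kb apart on chromosome 5 (119670669 to 119684724 and 119832668 to 119885219), and their highest groups differed. Tbx3 and Tbx5 had ratios of 1.19 and 0.99 in allantois-like cells.

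Eomes was nearly absent at this stage. Of 121 spliced UMIs in all kept cells, 39 came from 74 tdTom- extraembryonic ectoderm-like cells, at 20.8 CPM (14.8 to 28.4). This is the trophoblast lineage in which Eomes is known, and the tdTom+ fraction had only 1 such cell. Visceral endoderm-like tdTom- cells held 7.3 CPM from 10 UMIs, and no other group had more than 8 UMIs in a fraction. T was in none of the 74 thinned extraembryonic ectoderm-like cells, with or without Eomes. Of the other T-box genes in the annotation, Mga, a large protein that joins a T-box to a Max-partner domain, was the exception to this restricted picture. It lay between 37.7 CPM and 97.2 CPM in each fraction of the 19 groups compared, and no fold passed 2. Tbx10, Tbx15, Tbx19, Tbx21, Tbx22 and Tbr1 had 9, 25, 4, 0, 9 and 43 spliced UMIs over all barcodes, too few for a fold in any group.

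How restricted a gene is can be put as tau, which is 0 for an even level over the 26 groups and 1 for a single group. The median tau of the 10942 genes with at least 500 UMIs was 0.21. Among members tau ran from 0.53 for Tbx3 through 0.71 for Tbx20 and Tbx1, 0.77 for Tbx2 and T, 0.85 for Tbx6 and Tbx18, and 0.86 for Tbx5 to 0.87 for Tbx4, and it was 0.89 for Eomes, which had too few UMIs to be among those genes. Tbx3 was above 84.9% and Tbx4 above 98.3% of genes. At full depth, UMIs of Tbx4 were in 77.3% and 81.1% and of Tbx5 in 66.5% and 66.1% of the cells of their leading groups, but of Tbx18 in 34.4% and 33.3%.

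Between the fractions, 64 pairs of a member and a cell group had at least 30 UMIs in 1 of 19 groups with at least 50 cells on each side. Of these 64 pairs, 7 were past 2-fold with an interval that left out 0 (10.9%), 5 higher and 2 lower in tdTom+. Over all genes the same rule called 2.15% of 181126 pairs. The count of 7 changed with single cells. Leaving out the 1 cell with the most UMIs of the gene in the fraction with the higher level took it to 2 of 60 pairs. This step works against each difference, and its share over all genes was not counted. Asking for at least 100 UMIs also took the count to 2, of 42 pairs, where 0.939% of the pairs of all genes were called. T in tdTom+ hindbrain and spinal cord-like cells (29 against 10 UMIs) had 23 of its 29 UMIs in 1 cell. For Tbx1 in tdTom+ forebrain and midbrain-like cells 13 of 19 UMIs were in 1 cell, and for T in tdTom- extraembryonic mesenchyme-like cells 12 of 21. T in splanchnic mesoderm-like cells was lower in tdTom+ (1.8 against 4.1 CPM, log2 fold -1.15), and -0.92 without 1 cell; its UMIs lay in 19 tdTom+ and 27 tdTom- cells.

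Of the other 3 calls, 2 depend on the layer counted. Tbx20 in the cells led by Igfbpl1 and Tlx1 was at 24.9 CPM in tdTom+, with a UMI in 62 of 263 cells, and at 6.9 CPM in tdTom-, in 13 of 140 cells. The log2 fold was 1.85 (1.04 to 2.77), and 1.76 (0.95 to 2.69) without the 1 cell with most UMIs. With unspliced UMIs added the cells held 262 (tdTom+) and 65 (tdTom-) UMIs of Tbx20, and the log2 fold was 0.94 (0.54 to 1.35), under the limit. The unspliced share of these was 59.2% (52.9 to 65.2) in tdTom+ and 78.5% (66.5 to 87.7) in tdTom-. Of the cardiac list 14 genes could be compared in the same cells, with a median log2 fold of 0.35 and 1 gene past 2-fold, Hand1 (-1.05). Nkx2-5 had 0.30, Isl1 0.38 and Myl7, an atrial myosin, 0.69. Of 9 genes of the pharyngeal list none was called higher and 2 were called lower, with a median of -0.41. Over all 8780 genes compared in these cells 77 were called higher and 173 lower. Cells with both Tbx20 and Nkx2-5 made up 8.49% of tdTom+ thinned cells against a product of 4.51%. In tdTom- it was 1 of 134 cells where the product gives 2.10, with an interval of the ratio from 0.012 to 2.60. Whether the 2 fractions hold the same mixture of cells in this group was not tested. Tbx3 in presomitic mesoderm-like cells was at 26.6 CPM in tdTom+ (57 of 265 cells) and 13.2 CPM in tdTom- (37 of 351 cells), a log2 fold of 1.01 (0.55 to 1.47) that was just under the limit, at 0.95, without 1 cell. It was 0.85 (0.42 to 1.28), also under the limit, with unspliced UMIs added, from 119 and 79 UMIs. The border of this group differed by fraction. With finer clusters 69 tdTom+ and 2 tdTom- of the cells led by Hoxd1 and Osr1 joined it, with 81 and 0 UMIs of Tbx3. Whether this border has a part in the difference of Tbx3 was not tested. Tbx4 in extraembryonic mesenchyme-like cells had 47 UMIs in 23 of 653 tdTom+ cells and 1 UMI in 405 tdTom- cells, which gives a log2 fold of 4.80 (2.25 to 10.1). The group was not the same mixture in both fractions: with finer clusters, 80 tdTom+ and 5 tdTom- of its cells fell into a cluster led by Pmp22 and Tmem158, which held 10 of the 47 UMIs, and 54 tdTom- cells with no Tbx4 fell among splanchnic mesoderm-like cells. The cluster led by Postn and Col1a1, with 203 tdTom+ and 157 tdTom- cells, held 30 UMIs in tdTom+ and 1 in tdTom-. Pitx1 (1.04) and Hoxa10 (2.42) were also past 2-fold in that group, 2 of the 7 genes of the allantois and hindlimb list with enough UMIs there, and the median of the 7 was 0.04. Of all 10275 genes compared there, 85 were called higher and 173 lower. Their part in the difference of Tbx4 was not tested.

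**Figure D3:**
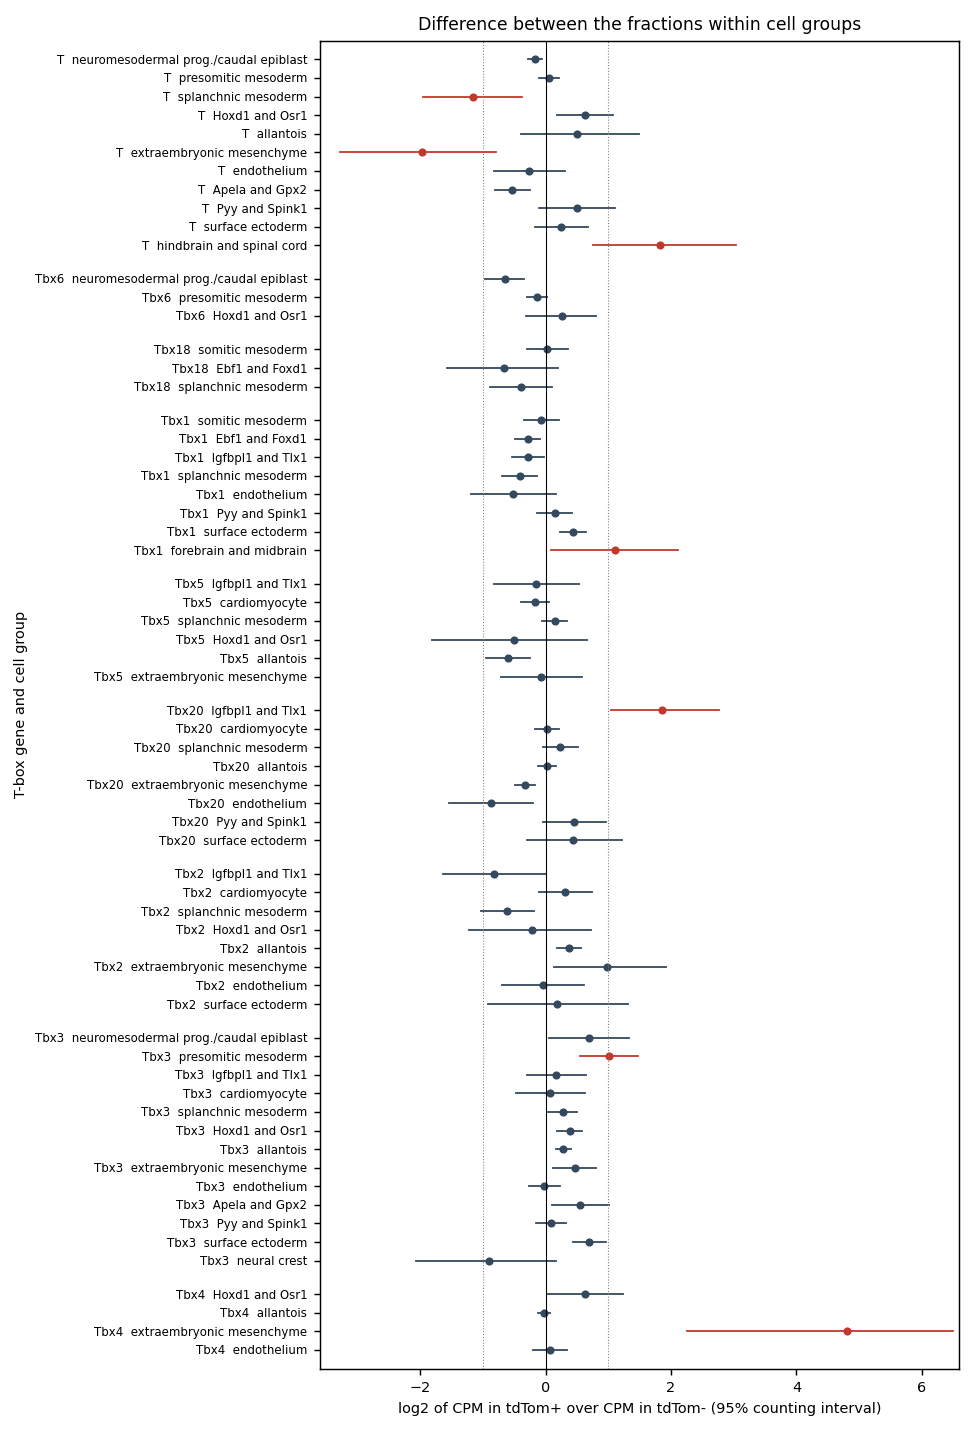
Log2 of the level in tdTom+ over that in tdTom- for the 64 pairs of a T-box gene and a cell group with at least 30 UMIs, with 95% counting intervals and dotted lines at 2-fold. The 7 pairs past 2-fold are red, the interval of Tbx4 in extraembryonic mesenchyme is cut at the right edge (it reaches 10.1), and 11 of 13 points of Tbx3 lie above 0.

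For 8 members the leading group could be compared between the fractions. The notochord-like cells, which lead for T, were under 50 cells on each side, so T is given in its next groups, and Eomes had no fold. The log2 fold was -0.03 (-0.13 to 0.07) for Tbx4 in allantois-like, 0.02 (-0.16 to 0.21) for Tbx20 in cardiomyocyte-like, 0.03 (-0.29 to 0.35) for Tbx18 in somitic mesoderm-like and -0.14 (-0.31 to 0.02) for Tbx6 in presomitic mesoderm-like cells. It was -0.17 (-0.28 to -0.06) for T in caudal progenitors, and -0.53 (-0.81 to -0.26) in the cells led by Apela and Gpx2, whose level of T is near that of caudal progenitors. It was -0.29 (-0.49 to -0.09) for Tbx1 in the cells led by Ebf1 and Foxd1 and -0.18 (-0.40 to 0.05) for Tbx5 in cardiomyocyte-like cells. Tbx2 at 0.37 (0.18 to 0.57) and Tbx3 at 0.28 (0.16 to 0.40) were higher in tdTom+ allantois-like cells, with intervals that left out 0. The intervals of these 9 genes in these groups all lay within 2-fold. Whether an interval held 0 changed with the processing for 6 of them. With cells thinned to 5000 UMIs those of Tbx2 (0.26, -0.08 to 0.60) and Tbx3 (0.18, -0.04 to 0.40) held 0, and that of T in caudal progenitors did with doublets kept (-0.09, -0.19 to 0.01). That of Tbx6 left out 0 with thinned cells (-0.41, -0.71 to -0.12) and with finer clusters (-0.45, -0.61 to -0.29). So did that of Tbx4 with finer clusters (0.21, 0.10 to 0.30), where the sign also turned, and that of Tbx5 without imprinted genes (-0.27, -0.49 to -0.05). Reclustering also changed which cells a group held. With finer clusters the tdTom+ allantois-like cluster went from 860 to 706 cells and the tdTom+ presomitic mesoderm-like cells from 265 to 327. The median over all 64 pairs was 0.06, where the median of well-counted genes in a group lay between -0.0578 and -0.00261. Intervals left out 0 in 29 of the 64 pairs (45.3%), 17 above and 12 below, and in 18.9% of pairs of all genes. Tbx3 had 8 such pairs, all higher in tdTom+, among them the allantois-like cells and those led by Hoxd1 and Osr1, which divide by fraction, with log2 folds from 0.27 in splanchnic mesoderm-like cells to 1.01 in presomitic mesoderm-like cells. Its level in blood cells, the stand-in for free RNA, was also higher in tdTom+ (1.78 against 0.705 CPM). So were the levels there of all other members except Tbx6 (0.258 against 0.317 CPM). The blood cells were mostly blood progenitor-like in tdTom+ and erythroid-like in tdTom-. With the blood level of each library subtracted, the log2 fold of Tbx3 in allantois-like cells was 0.27, beside 0.28 before. For Tbx3 the subtraction was made in that group alone. Tbx3os1, the transcript next to Tbx3, was at 2.0 CPM (31 UMIs) in tdTom+ and 0.71 CPM (5 UMIs) in tdTom- allantois-like cells, a log2 fold of 1.51 (0.14 to 3.23). This fold uses spliced UMIs alone, while Tbx3os1 had 134 spliced and 526 unspliced UMIs over all barcodes. Its other groups are not given, and single cells behind it were not examined. For Tbx6 the interval left out 0 in caudal progenitors, with a log2 fold of -0.65 (-0.97 to -0.34), and for Tbx5 in allantois-like cells, with -0.61 (-0.96 to -0.25).

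The genes fixed as partners of T and Tbx6 did not all differ alike within the presomitic mesoderm-like cells. Of 20 genes 16 could be compared there, and 3 were past 2-fold, all lower in tdTom+: Mesp1 (14.9 against 40.8 CPM, log2 fold -1.46), Mesp2 (7.9 against 25.3 CPM, -1.68) and Ripply2 (5.8 against 29.2 CPM, -2.34). Among all 9199 genes compared in that group, 49 were called higher and 83 lower. Mesp2 and Ripply2 are genes of the newest somite boundary that need Tbx6, and both are on the epicardial and somite list as well. In the same cells Msgn1 had a log2 fold of 0.11, Dll1 of -0.19, Fgf8, a posterior growth factor, of 0.06 and Cdx2, a posterior homeobox gene, of 0.18. Tbx6 itself was at 132 against 146 CPM. In somitic mesoderm-like cells, the next stage, the order was the opposite, with 22 UMIs of Mesp2 in tdTom+ and 4 in tdTom- and 18 and 1 UMIs of Ripply2, under the minimum of 30. How the clustering divides the cells between these groups in each fraction was not tested. Over all groups the posterior list had 12 calls higher and 19 lower in 171 pairs, and Sox2 made up 9 of the lower ones. The pharyngeal list had 4 higher and 6 lower of 127, the cardiac list 5 and 4 of 173, the allantois and hindlimb list 6 and 5 of 74, and the epicardial and somite list 1 and 4 of 23. The shares called were 18.1%, 7.87%, 5.2%, 14.9% and 21.7% in that order, beside 2.15% of the pairs of all genes, and some genes are on 2 lists.

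Members differed widely in the share of their UMIs that was unspliced, meaning that it lay in introns. Over all kept cells this share was 2.06% for Tbx1, 2.25% for T, 3.95% for Tbx6 and 8.33% for Eomes. It was 14.7% for Tbx3, 16.5% for Tbx2, 21.1% for Tbx18 and 25.2% for Tbx5, and it reached 54.7% for Tbx4 and 56.4% for Tbx20. Tbx4 and Tbx20 thus gave more unspliced than spliced UMIs, where the libraries as a whole had 13.1% and 13.4% unspliced. Summed intron length was 2.3 to 7.4 kb for the 6 shortest genes and 23.7 to 47.9 kb for the others, but the order was not the same: Tbx5, with 47.9 kb of intron, had a lower share than Tbx4, with 26.3 kb, and Tbx2 a higher one than T, both with 5.8 kb. In 10x data an unspliced UMI often starts at an A-rich stretch of an intron, and such stretches were not analysed here.

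**Figure D4:**
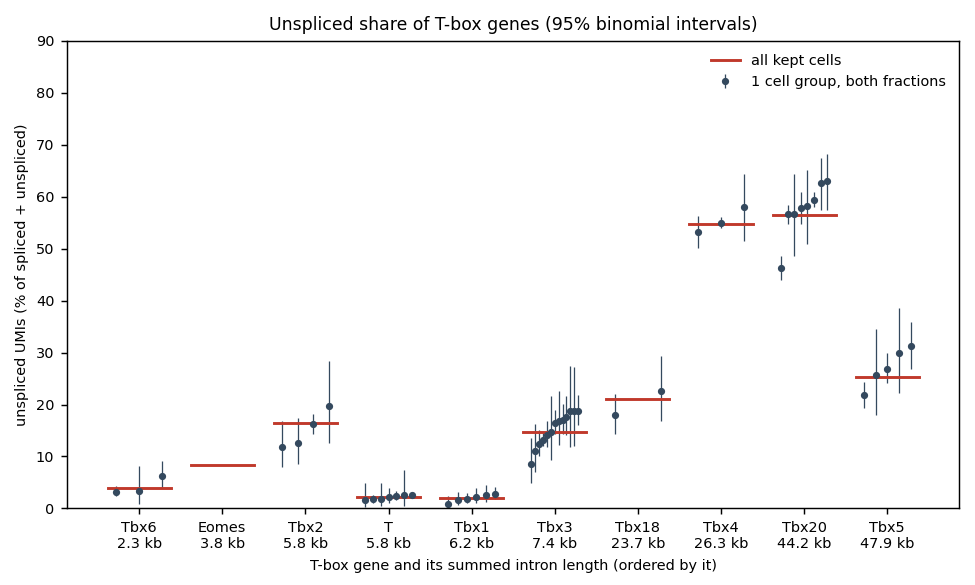
Unspliced share of the UMIs of each T-box gene, in percent of spliced plus unspliced UMIs, with genes ordered by summed intron length. Points are cell groups with at least 100 UMIs of the gene (95% binomial intervals) and red lines all kept cells, which lie at 2.06% for Tbx1 and at 56.4% for Tbx20.

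The unspliced share of a gene could differ between groups. Tbx4 had 55.0% (53.9 to 56.1) in allantois-like, 53.3% (50.1 to 56.4) in endothelium-like and 58.1% (51.5 to 64.4) in the cells led by Hoxd1 and Osr1. Tbx3 had 13.2% (12.1 to 14.4) in allantois-like and 18.8% (16.0 to 21.9) in endothelium-like cells, intervals that do not overlap. Tbx20 had 46.2% (43.9 to 48.6) in cardiomyocyte-like cells and 56.6% to 63.0% in the other 7 groups with at least 100 UMIs. The lower share was present in both fractions, at 46.4% of 1096 UMIs in tdTom+ and 46.1% of 738 UMIs in tdTom-, beside 58.3% and 61.7% in allantois-like cells. All genes together were 13.2% and 13.8% unspliced in cardiomyocyte-like and 13.1% and 13.2% in allantois-like cells. Tbx5 had 21.8% (19.4 to 24.3) in splanchnic mesoderm-like and 31.2% (26.8 to 36.0) in allantois-like cells, again in the same order in both fractions. Tbx6 had 3.20% (2.32 to 4.31) in presomitic mesoderm-like cells and 6.19% (4.00 to 9.06) in caudal progenitors, and these intervals overlap.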

How the data were processed

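The deposited matrices hold spliced and unspliced UMI counts per gene and barcode. Per the labels and the study's methods, the authors mapped reads to mm10 with Cell Ranger 3.0.2 (GRCm38 annotation), kept barcodes by emptyDrops and by mixture models of depth and mitochondrial share, and made both matrices with velocyto. Mitochondrial percent per cell and total counts per gene were also deposited. All values were whole counts: 167940767 spliced UMIs in 8981 tdTom+ and 157174026 in 9252 tdTom- barcodes.

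Doublets were called with Scrublet in scanpy 1.11.5 (4.20% and 5.60% of barcodes) and left out, with 1 cluster mostly of doublets. Leiden clusters (50 components, 20 neighbours, resolution 1.5) were made from 1815 variable genes without T-box genes, the paired genes, Gata1, Xist, Y-linked genes and tdTomato. A cluster was named where 3 or more markers of 1 of 26 classes were raised 2-fold and no other class had as many among its 10 leading genes, a tie rule added after the clusters were seen. Imprinted genes, finer clusters (resolution 2.5), thinning, doublets, free RNA, scaling, minimum UMIs and unspliced counts were varied.

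Spliced UMIs were summed per group and fraction and given as CPM with exact Poisson intervals. Ratios between the fractions have exact conditional and shares exact Clopper-Pearson intervals, from SciPy 1.17.1. Only the former were tried on simulated counts. These held counting error alone, as the interval assumes, and so could not show the effect of UMIs gathered in single cells. With 1 library per fraction there are no replicates, no test was run across all genes, and a call means at least 2-fold, an interval without 0 and at least 30 UMIs. Intervals cover counting error only, and the depth sets them. A floor of 3 UMIs was set for a count of 0. Cells thinned to 5000 UMIs left out 151 tdTom+ and 370 tdTom- cells. The rule for named genes was the 10 members, fixed lists of partners and family genes, genes whose symbol begins with Tbx, and for each member with 500 UMIs the 3 genes of highest correlation. The members and lists were chosen with earlier results of these data known. Results on some genes are not reported here.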

Additional observations from a re-analysis of the deposited data

Results flagged for a closer look

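T had calls of opposite direction between the fractions in different groups: its log2 fold in hindbrain and spinal cord-like cells exceeded that in extraembryonic mesenchyme-like cells by 3.81 and that in splanchnic mesoderm-like cells by 2.98. The difference was not tested, as each fraction is 1 library, and 23 of the 29 tdTom+ UMIs in hindbrain and spinal cord-like cells lay in 1 cell. Without the 1 cell with the most UMIs the log2 fold was -0.44 (-2.18 to 1.16) there and -0.76 (-2.27 to 0.75) in extraembryonic mesenchyme-like cells. It was -0.92 (-1.75 to -0.12) in splanchnic mesoderm-like cells. The signs were then no longer opposite. In the hindbrain and spinal cord-like and extraembryonic mesenchyme-like cells the intervals held 0, with under 30 UMIs, so the direction there is not settled.

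Unspliced UMIs, which the levels above do not use, were present for T-box genes with few or no spliced ones. Over all barcodes Tbx15 had 237 unspliced and 25 spliced UMIs, Tbx21 34 and 0, and Tbx19 25 and 4. Each passed the floor of 3 UMIs set for flagging. That floor is not a background level for sums over all barcodes, so expression of these genes is not settled.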

How the results depend on the processing

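Of 64 pairs, 7 were past 2-fold, beside 2.15% of the pairs of all genes. A minimum of 100 UMIs gave 2 of 42 pairs, beside 0.939% of the pairs of all genes. No minimum gave 11 of 181, beside 2.27% of the pairs of all genes. Leaving out the single cell with the most UMIs in the higher fraction, an alternative chosen after seeing the data, gave 2 of 60. That step works against each difference and has no share over all genes beside it. With median-of-ratios scaling the count was 8 of 64, beside 2.1% of the pairs of all genes. These were all 7 calls and Tbx2 in extraembryonic mesenchyme-like cells. With spliced plus unspliced UMIs the count was 8 of 72, beside 2.31% of the pairs of all genes. Of these 8, 5 were among the 7. Tbx20 in the cells led by Igfbpl1 and Tlx1 (0.94) and Tbx3 in presomitic mesoderm-like cells (0.85) were lost, and 3 were added. All 10 members kept their leading group with unspliced UMIs added, with thinned cells, without imprinted genes and with finer clusters. Alternatives were run for 8 members in their leading group and for T in caudal progenitors, since its leading group was not compared. Of 72 values, 66 stayed inside the interval of the main value and 6 did not. All 6 came with thinned cells or new clusters. Some alternatives could hardly leave the interval, such as median-of-ratios scaling, with shifts per group between -0.058 and -0.0026. Tbx6 in presomitic mesoderm-like cells was -0.14, -0.41 with thinned cells and -0.45 with finer clusters, and Tbx2 in allantois-like cells was 0.37, and 0.63 with finer clusters. Tbx4 there was -0.03, 0.09 without imprinted genes and 0.21 with finer clusters, and Tbx20 in cardiomyocyte-like cells was 0.02, and -0.21 with thinned cells. The finer clusters did not compare the same cells. The tdTom+ allantois-like cluster held 706 cells, beside 860 in the main setting, while the tdTom- one kept 421. The presomitic mesoderm-like cluster held 327 tdTom+ and 329 tdTom- cells, beside 265 and 351. The part of this in the moves, and the cause of the others, was not tested. No paired analysis was possible because each fraction has 1 library. Depth limits Eomes and the rarer groups most.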

Other observations

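Cell Ranger totals per gene, deposited beside the matrices, differed from the spliced totals by under 30 UMIs for 8 of the members (T had 7701 and 7711), but Tbx3 had 9477 in the former and 8165 in the latter, and Tbx20 6309 and 5656. The UMIs that only 1 of the 2 counts includes could not be placed.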
